A study of Mus musculus with 70 samples.

Results

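Transcripts of 10 genes that macrophages and other leukocytes carry were followed through cultures of RENCA cells, a mouse renal adenocarcinoma line, recovered after serial passage in mice. The members were fixed by name (Ptprc, Lyz2, Cd68, Adgre1, Cd14, Tyrobp, Fcer1g, Itgam, Ctss and Cd52), and they are 10 of the 21154 gene symbols to which array probes could be matched. All 10 had a probe, and 13 probes in all read them. The question was whether their levels moved together from sample to sample, as transcripts of a single cell population mixed into a culture would, and in which route and passage they were high.

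The parental cells (P0, 2 RNA samples) carried green fluorescent protein (GFP) from a lentiviral vector with the MND promoter and had not been in a mouse. Per the labels, the kidney primary tumour route (KPT) placed cells under the kidney capsule and took them back from the kidney tumour. The tail-to-lung metastasis route (T-LM) injected cells into the tail vein and took them from lung metastases. The kidney-to-lung metastasis route (K-LM) placed cells in the kidney and took them from lung metastases. Hosts were wild type female BALB/c mice, 6 weeks old per the study's methods, and each cycle of injection and recovery is a passage, P1 to P6. The numbers of RNA samples at P1, P2, P3, P4, P5 and P6 were 5, 2, 2, 3, 5 and 5 for KPT. They were 5, 2, 3, 4, 6 and 4 for T-LM, and 1, 1, 5, 3, 4 and 3 for K-LM. All groups, P0 included, derive from the same GFP-labelled cells, so no group lacks the vector. The methods describe digested tissue kept in culture until GFP-negative cells were no longer seen, whereas the extraction label names a tissue homogeniser. Whether each RNA came from cultured cells or from tissue is not settled by these sources.

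Macrophages derive from circulating monocytes or from precursors laid down in the embryo, and they settle in every organ, the kidney and the lung included. They engulf debris into lysosomes rich in proteases such as cathepsin S, and they sense antibodies and microbes through receptors that signal by way of small adaptor proteins, TYROBP and the FCER1G gamma chain. Renal tumours and lung metastases commonly hold many of them, and macrophages attach to plastic firmly and can outlive other tumour-derived leukocytes in culture.

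Levels are log2 of the array signal relative to the 75th percentile of the probes that were well above background on every array, so a level of 0 is a bright probe and a level near -8 is at background. Levels of different genes come from different probes and are not set against each other. The scanner software's call of well above background is used throughout, and 25.2% to 55.2% of all probes carried it on an array. The median was 32.95%, and the array with 55.2% was that of T-LM P1 replicate 2. Arrays of 62 hybridisations lay on 8 slides. The other 8 arrays (all of K-LM P6, plus repeats of both P0 samples and of KPT P6 replicates 1, 2 and 4) lay on a slide scanned on another day with another software version, called the late slide here; slide, day and version cannot be told apart, and background probes read lower there. Of 8 kidney tubule and renal carcinoma markers, Krt8, Krt18 and Pax8 were well above background in all 65 samples. Cdh16 was so in 21, Cdh1 in 7, Epcam in 4, Lhx1 in 2 and Pax2 in none. The labels do not say whether samples of a group came from separate mice, so p-values measure the spread between these samples. In bulk RNA, fewer cells of a type and less RNA per cell cannot be told apart.

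Of the 10 members, P0 samples had 3 or 4 well above background: Cd68, Cd14 and Itgam in both, and Lyz2 in 1 of 2. The other 6 (Ptprc, Adgre1, Tyrobp, Fcer1g, Ctss and Cd52) were at background in both P0 samples. Across the 65 RNA samples, 12 had 0 of those 6 above background, 23 had 1 to 3, 21 had 4 or 5, and 9 had all 6. The samples with 4 or more lay on 8 of the 9 slides. Members therefore came and went from sample to sample rather than with a single slide.

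The members did not accumulate evenly with passage. KPT P1 samples had 7 to 10 members above background, both KPT P2 samples had 5, and the KPT P3 samples had 4 and 5. KPT P4 had 10, 10 and 5, KPT P5 had 8 to 10, and KPT P6 had 6 to 8. In T-LM the counts were 4 to 9 at P1, 5 and 6 at P2, 4 or 5 at P3, 9 or 10 at P4, 3 to 9 at P5 and 8 to 10 at P6. In K-LM they were 9 at P1, 6 at P2, 3 to 7 at P3, 4 to 9 at P4, 7 to 9 at P5 and 5 in each P6 sample. In KPT the counts were lowest at P2 and P3, T-LM P5 held samples with few members beside 1 with 9, and at P6 the counts were 8 to 10 in T-LM, 6 to 8 in KPT and 5 in K-LM.

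**Figure D1:**
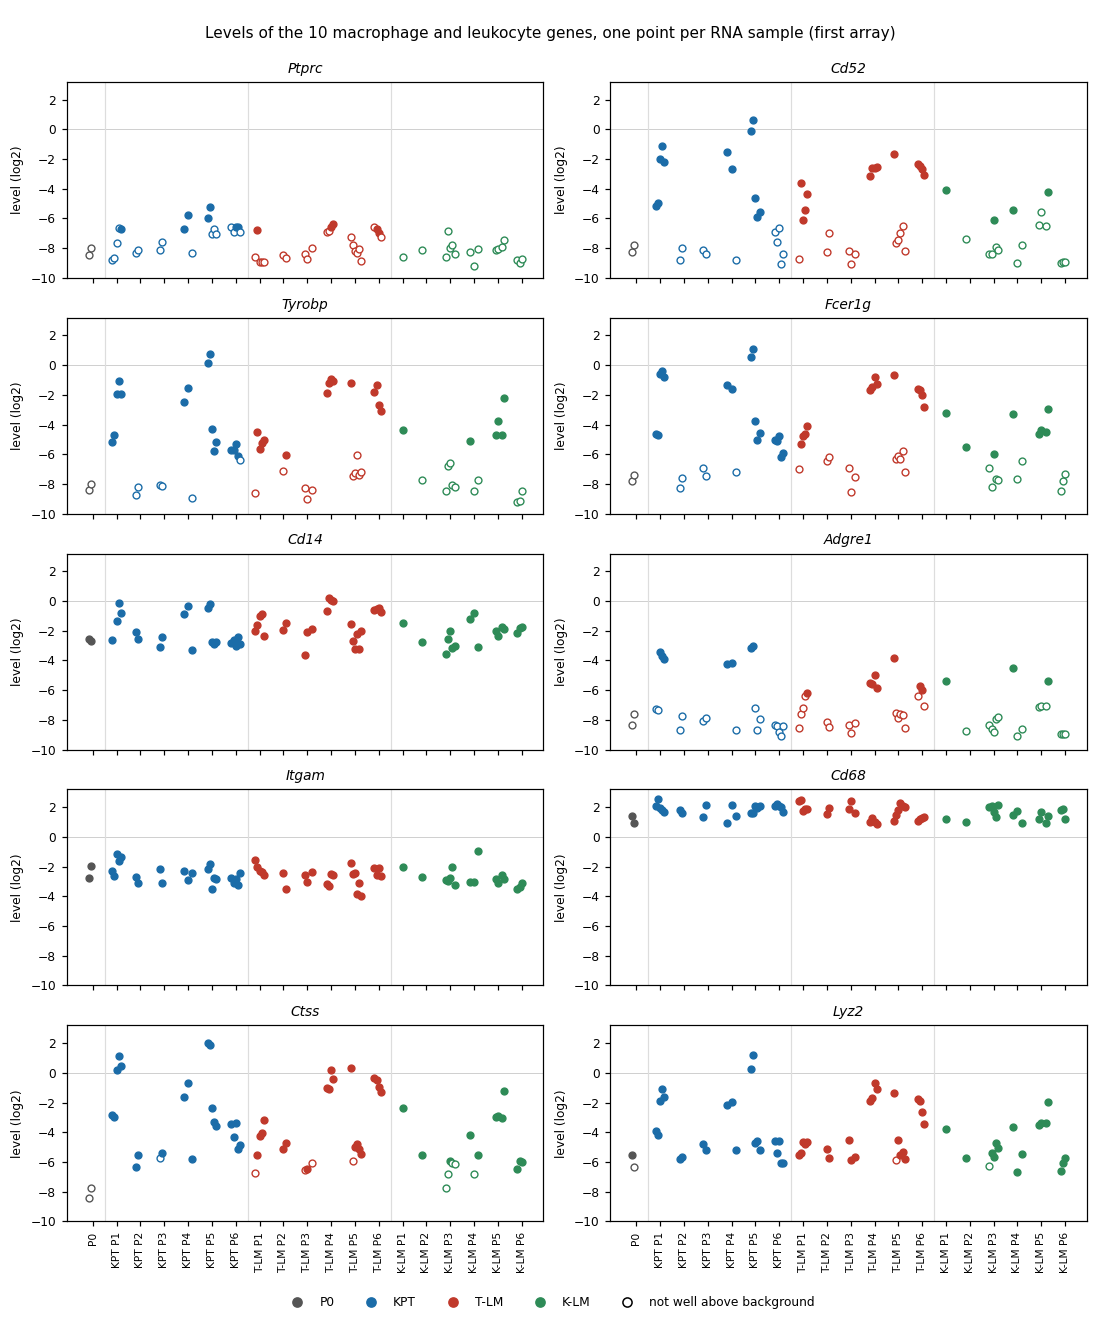
Level of each of the 10 genes (y axis, log2 relative to the 75th percentile of commonly detected probes) in P0 and in each route and passage (x axis), with 1 point per RNA sample on its first array; filled points were well above background and open points were not. Tyrobp, Fcer1g, Ctss, Cd52, Adgre1 and Lyz2 show the same high samples in KPT P1, P4 and P5 and in T-LM P4 and P6, whereas Cd68 (0.86 to 2.58) and Itgam (-3.95 to -0.92) stay within narrow bands in all samples.

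The adaptors had some of the widest ranges. Tyrobp encodes TYROBP (DAP12), the signalling adaptor of many myeloid and natural killer cell receptors, and was well above background in 36 of 65 samples over a range of 10.0 log2 units. Its P0 levels were -8.41 and -8.00, both at background. In KPT P1 it read -5.18, -4.70, -1.94, -1.03 and -1.96, all above background. KPT P2 and P3 were at background, from -8.74 to -8.10. Thus the 5 first-passage samples lay above every KPT P2 and P3 sample. In KPT P4 the levels were -2.47, -1.57 and -8.92, and in KPT P5 they were 0.16, 0.77, -4.31, -5.79 and -5.17. Samples of a single KPT group hence lay far apart. In KPT P6 the levels were -5.74, -5.71, -5.31, -6.10 and -6.37, with 4 of 5 above background and none overlapping P0. Such separation was common between groups of this size, as 31.6% of all tested probes did not overlap between P0 and KPT P6.

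In T-LM, Tyrobp read -8.61 in P1 replicate 1 (the sample whose title gives no route) and -5.66 to -4.52 in the other 4. It was at background in all 3 T-LM P3 samples (-9.00 to -8.30). The 4 T-LM P4 samples read -1.86, -1.17, -0.94 and -1.06. T-LM P5 replicate 1 read -1.19 and the other 5 samples of T-LM P5 lay at background, from -7.45 to -6.07. T-LM P6 rose again to -1.83, -1.33, -2.68 and -3.09, in no overlap with P0 or P3, beside 42.2% and 23.9% of all tested probes. In K-LM, P4 replicate 1 (-5.11), the 4 P5 samples (-4.72, -3.75, -4.74 and -2.25) and the P1 sample (-4.40) were above background. The 3 K-LM P6 samples read -9.25, -9.17 and -8.46 and the late-slide repeats of P0 read -9.87 and -9.14, all at background.

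Fcer1g encodes the gamma chain shared by Fc receptors and several lectins, and it was above background in 38 of 65 samples. P0 read -7.81 and -7.42. KPT P1 read -4.64, -4.70, -0.58, -0.41 and -0.80, and KPT P5 read 0.53, 1.11, -3.78, -5.05 and -4.60. The KPT samples highest for Fcer1g were thus those highest for Tyrobp. In P6, KPT read -5.05, -5.08, -4.79, -6.18 and -5.90, T-LM read -1.63, -1.67, -2.002 and -2.83, and K-LM read -8.50, -7.79 and -7.31. The 3 routes did not overlap at P6, with T-LM highest and K-LM at background. Of all tested probes, 16.2% did not overlap between T-LM P6 and KPT P6, 36.5% between K-LM P6 and KPT P6, and 43% between K-LM P6 and T-LM P6.

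Transcripts for surface proteins of leukocytes at large were above background in fewer samples than those of the adaptors. Ptprc encodes CD45, the tyrosine phosphatase that all nucleated blood cells carry. Its probe was above background in 12 of 65 samples and its highest level was -5.27, in KPT P5 replicate 2. At P6 it read -6.91 to -6.58 in KPT, -7.25 to -6.58 in T-LM and -9.02 to -8.77 in K-LM, against -8.44 and -7.97 in P0. Cd52 encodes a short GPI-anchored glycopeptide of lymphocytes and monocytes and was above background in 29 of 65 samples. It was at background in P0 (-8.30 and -7.81) and in all 5 KPT P6 samples (-9.05 to -6.68), although Fcer1g and Ctss were above background in each of those 5. In T-LM P6 Cd52 read -2.36, -2.46, -2.66 and -3.05, in no overlap with KPT P6 or K-LM P6 (-8.99 to -8.94).

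Among the receptors, Adgre1 encodes an adhesion receptor that is the classical surface marker of mouse tissue macrophages, and was above background in 18 of 65 samples. P0 read -8.32 and -7.60. It was above background in KPT P1 replicates 3, 4 and 5 (-3.41, -3.70 and -3.93), KPT P4 replicates 1 and 3 (-4.21 and -4.17) and KPT P5 replicates 1 and 2 (-3.19 and -3.003). In T-LM it was above background in all 4 P4 samples (-5.88 to -4.95) and in 2 of 4 P6 samples. The KPT P6 and K-LM P6 samples were all at background for Adgre1. A second Adgre1 probe followed the first (r = 0.96 over 65 samples) and was above background in 11.

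Cd14, the co-receptor for bacterial lipopolysaccharide, differed from these in that the P0 cells already had it, at -2.53 and -2.67. It was above background in all 64 samples with a reading (the spot of KPT P1 replicate 2 was left out as an outlier by the scanner software). Its highest level was in T-LM P4, which read -0.69, 0.18, 0.06 and 0.02, and T-LM P6 read -0.60, -0.53, -0.47 and -0.72, above both P0 samples. K-LM P4 replicate 3 read -0.79 for Cd14 while Tyrobp, Fcer1g, Ctss, Cd52, Adgre1 and Ptprc were at background in the same sample. A high Cd14 level was therefore also found without the others.

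Itgam encodes CD11b, the integrin alpha chain of macrophages, neutrophils and natural killer cells. Its brightest probe was above background in all 65 samples, P0 included (-2.79 and -1.98). On first arrays it stayed between -3.95 and -0.92. The late-slide repeats of the P0 samples read lower, at -4.11 and -3.02, so arrays of the same RNA differed as well. The 3 Itgam probes disagreed. Probe A_55_P1977929 was above background in 12 of 65 samples, ranged from -8.46 to -3.90 and had r = 0.75 with Tyrobp. The brightest probe, A_55_P1977934, had r = 0.32 with Tyrobp, and A_55_P1977926 had r = 0.09 and was above background in 2 samples. Statements on Itgam below hold for the brightest probe unless another is named.

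The lysosomal genes split in the same way. Ctss encodes cathepsin S, a protease of antigen-presenting cells, and was above background in 53 of 65 samples over the widest range of the 10, 10.4 log2 units. P0 read -8.41 and -7.76, both at background. KPT P1 read -2.86, -2.95, 0.18, 1.13 and 0.46, KPT P5 read 2.01, 1.87, -2.39, -3.31 and -3.60, and KPT P6 read -3.43, -4.29, -3.35, -5.10 and -4.83. T-LM P6 read -0.36, -0.46, -0.95 and -1.32, and K-LM P6 read -6.48, -5.96 and -5.98. Ctss was the member still above background in every K-LM P6 sample among the 6 that were dim in P0.

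Lyz2 encodes lysozyme M, which macrophages and granulocytes secrete, and was above background in 62 of 65 samples. P0 read -5.54 and -6.32. It reached 0.29 and 1.19 in KPT P5 replicates 1 and 2, against -5.22 to -4.58 in the other 3 samples of the group. T-LM P6 read -1.74, -1.92, -2.66 and -3.42, above every KPT P6 (-6.08 to -4.61) and K-LM P6 sample (-6.60 to -5.75). Cd68 encodes a lysosomal membrane protein that is abundant in macrophages and present at lower levels in many other cells. It was bright in all 65 samples, with 1.40 and 0.93 in P0 and a full range of 1.72 log2 units. In KPT P5 replicates 1 and 2, where Tyrobp, Ctss and Lyz2 peaked, Cd68 read 1.60 and 1.59, below the 1.96 to 2.11 of the other 3 samples.

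The members other than Cd68 and Itgam moved together across samples. Over the 65 RNA samples (64 for pairs with Cd14), Pearson r for the 28 pairs without Cd68 and Itgam ran from 0.41 (Ptprc with Cd14) to 0.97 (Tyrobp with Fcer1g), with a median of 0.86. Tyrobp had r = 0.96 with Ctss, 0.96 with Cd52, 0.93 with Lyz2, 0.87 with Adgre1, 0.74 with Cd14 and 0.73 with Ptprc. The same pairs had r from 0.50 to 0.96 (median 0.87) for deviations from the group mean, over the 63 samples of groups with more than 1 sample (62 for pairs with Cd14). The joint movement was thus also present between samples of the same route and passage. These correlations are descriptions over samples that share arrays, scaling and, for dim genes, a common background level.

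Cd68 and Itgam stood outside. The 9 pairs with Cd68 had r from -0.39 to -0.16, and the 9 with Itgam from -0.26 to 0.45. Within groups, Cd68 and Itgam had r = -0.69 with each other. Both were already well above background in the parental cells, Itgam by its brightest probe only. Itgam probes A_55_P1977926 and A_55_P1977929 were at background in P0, and A_55_P1977929 had r = 0.75 with Tyrobp. Whether Itgam as a gene stood outside thus depends on the probe.

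**Figure D2:**
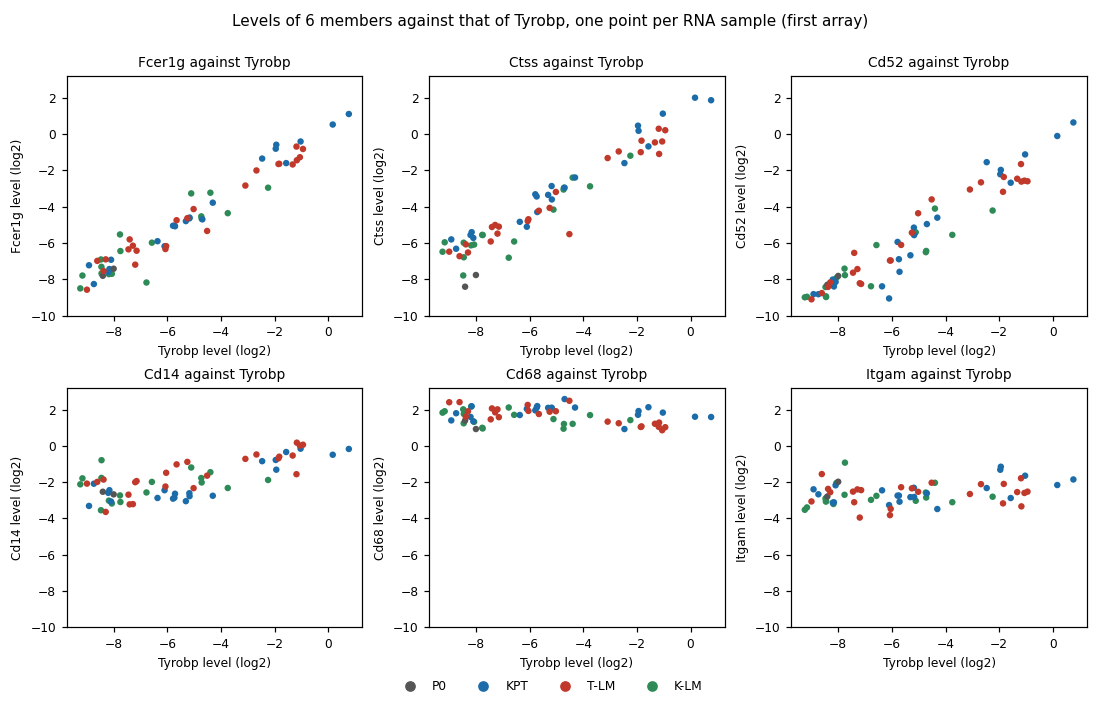
Level of 6 members (y axis, log2) against the level of Tyrobp (x axis, log2), 1 point per RNA sample on its first array, coloured by route. Fcer1g (r = 0.97), Ctss (r = 0.96) and Cd52 (r = 0.96) rise along with Tyrobp over the whole range. Cd14 (r = 0.74) rises less steeply, and Cd68 (r = -0.29) and the brightest Itgam probe (r = 0.32) do not follow Tyrobp.

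The genes most like each member were sought among the 12817 symbols above background in at least 3 RNA samples, with no p. For Tyrobp they were Fcer1g (r = 0.97), Clec4n (0.96), the Dectin-2 lectin that signals through the gamma chain, and Bcl2a1d (0.96), a survival factor of blood cells. For Fcer1g they were Bcl2a1d (0.97), Tyrobp (0.97) and Hcls1 (0.97), for Ctss Bcl2a1d (0.96), Fcer1g (0.96) and Tyrobp (0.96), and for Cd52 Fcer1g (0.96), Lilra6 (0.96) and Hcls1 (0.96). For Adgre1 they were Ms4a7 (0.94), Clec4e (0.92) and Lilra6 (0.92). For Lyz2 they were Lyz1 (0.98), a near-identical lysozyme gene whose RNA can hybridise to the same probes, Nrros (0.95) and Bcl2a1d (0.94). For Cd14 they were Mpeg1 (0.85), Cfp (0.81) and Trf (0.81) over 64 samples, and for Ptprc Coro1a (0.87), Arhgap25 (0.83) and Lsr (0.83). Cd68 was most like Coq10a (0.73), Fggy (0.72) and the proton pump subunit Atp6v1a (0.72), and Itgam most like Snap25 (0.98), Idua (0.98) and Zfp663 (0.97). Bcl2a1d was thus among the 3 closest genes of Tyrobp, Fcer1g, Ctss and Lyz2, and no member was among those of Cd68 or Itgam.

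Promoter sequence is shown for 2 members that moved together (Ctss and Fcer1g) and the 2 whose brightest probe did not (Cd68 and Itgam). For Itgam another probe did follow Tyrobp. PU.1 is the transcription factor on which macrophage development depends, and its DNA core was searched as GAGGAA on both strands (TTCCTC on the other). RefSeq promoters of GRCm38.p6 were given for 6 of the 10 members, each window being the 250 bases before the transcription start. Lower case is the gene's strand from 5′ to 3′, and capitals mark the motif. The window of Ctss is chr3:95526536-95526785 (plus strand), that of Fcer1g chr1:171234350-171234599 (minus strand), that of Cd68 chr11:69666171-69666420 (minus strand) and that of Itgam chr7:128062390-128062639 (plus strand).
Ctss: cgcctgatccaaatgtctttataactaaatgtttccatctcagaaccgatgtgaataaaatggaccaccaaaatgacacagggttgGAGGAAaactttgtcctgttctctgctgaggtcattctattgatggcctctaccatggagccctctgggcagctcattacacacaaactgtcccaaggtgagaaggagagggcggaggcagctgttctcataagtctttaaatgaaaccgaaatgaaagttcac
Fcer1g: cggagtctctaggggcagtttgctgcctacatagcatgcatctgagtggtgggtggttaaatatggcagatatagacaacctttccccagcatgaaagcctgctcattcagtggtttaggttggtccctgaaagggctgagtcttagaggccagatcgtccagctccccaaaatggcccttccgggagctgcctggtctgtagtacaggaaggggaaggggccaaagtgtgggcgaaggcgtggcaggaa
Cd68: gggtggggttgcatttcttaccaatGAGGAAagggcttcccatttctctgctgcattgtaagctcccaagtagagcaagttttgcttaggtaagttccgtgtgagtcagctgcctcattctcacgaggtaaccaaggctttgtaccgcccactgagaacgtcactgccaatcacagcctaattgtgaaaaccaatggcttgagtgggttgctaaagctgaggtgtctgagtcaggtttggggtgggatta
Itgam: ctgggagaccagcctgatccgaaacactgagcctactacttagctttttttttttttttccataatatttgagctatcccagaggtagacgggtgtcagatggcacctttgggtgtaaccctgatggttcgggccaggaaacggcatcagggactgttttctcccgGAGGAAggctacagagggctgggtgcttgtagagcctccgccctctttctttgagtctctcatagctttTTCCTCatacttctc

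The letters occurred once in Ctss and Cd68, once on each strand in Itgam and in neither strand in Fcer1g. Over all 32851 promoter windows of that length, 23.3% held them, and 4 of the 6 members with a window did (Ptprc in 1 of its 2 windows, and not Lyz2). Only these exact letters were searched, and other forms of a PU.1 site were not. Whether PU.1 has a part in the levels of the members was not tested.

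Changes between passages were tested with limma across all probes, and a member is said to have risen or fallen where its Benjamini-Hochberg adjusted p was 0.01 or less. All 10 members were tested in every fit, but the 6 that were dim in P0 passed the filter on low signals only through passaged samples. The comparisons of the 3 routes share the P0 samples, and each is given on its own.

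From P0 to P6, members passed in T-LM, and 0 passed in KPT and in K-LM. In T-LM, 6 of 10 rose and 0 fell, while 7.31% of all 21374 tested probes were called and 5.9% were called higher. Ctss rose by 7.31 ± 1.09 (SE, adjusted p = 0.000102), at least 36.3-fold. Tyrobp rose by 5.97 ± 1.18 (adjusted p = 0.00162), at least 13.2-fold, and Fcer1g by 5.58 ± 1.12 (adjusted p = 0.002), at least 15.1-fold. Cd52 rose by 5.43 ± 1.12 (adjusted p = 0.00252), at least 10.0-fold. Such lower bounds are used where no P0 array was above background. The T-LM P6 samples lay above both P0 samples for each of the 4 genes, and 8 of 10 members did not overlap, beside 42.2% of all probes tested. Cd14 rose by 2.02 ± 0.46 (adjusted p = 0.00514) and Ptprc by 1.33 ± 0.33 (adjusted p = 0.00928), the latter with 2 of 4 T-LM P6 samples above background. Lyz2 differed by 3.49 ± 0.89 and did not pass (adjusted p = 0.0121), nor did Adgre1 (1.68 ± 0.81, adjusted p = 0.223). The T-LM P5 group, in which 1 sample lay far from the others, was left out in an alternative added after the values were seen. There Lyz2 (3.49 ± 0.50, limma adjusted p = 0.000262) and Adgre1 (1.68 ± 0.37, adjusted p = 0.006) passed. Leaving out either P0 sample brought the count from 6 to 1 (Ctss), so the other 5 calls from P0 rest on both. The median over the 10 members was 2.76, against 0.00 over all probes tested.

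In KPT, 0 of 10 members passed from P0 to P6 (3 at an unadjusted p under 0.05), with 3.88% of probes called. Ctss differed by 3.88 ± 1.46, Tyrobp by 2.36 ± 1.76, Fcer1g by 2.21 ± 1.59 and Ptprc by 1.49 ± 0.53, and for none of these did the 5 KPT P6 samples overlap P0. In all, 5 of 10 members did not overlap, beside 31.6% of all probes tested. The fit takes its spread from P2 to P6 of the route, in which KPT P4 and P5 samples of a single group lay far apart. With the KPT P4 and P5 groups out of the fit, an alternative added after the values were seen, those 4 genes passed, with Tyrobp at 2.36 ± 0.27 (adjusted p = 8.96e-05), Ctss at 3.88 ± 0.45 (0.000114), Ptprc at 1.49 ± 0.21 (0.000472) and Fcer1g at 2.21 ± 0.37 (0.00156). The median over members was 0.72, against -0.01 over all probes.

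In K-LM, 0 of 10 members passed from P0 to P6 (1 at an unadjusted p under 0.05), with 5.61% of probes called. Ctss differed by 2.33 ± 0.67 (adjusted p = 0.0246) and the other 9 by between -0.36 and 0.57. On the late slide alone, K-LM P6 against the P0 repeats, Ctss passed at 2.61 ± 0.30 (adjusted p = 0.000425), and Tyrobp differed by 0.55 ± 0.34, Fcer1g by 0.11 ± 0.36 and Ptprc by 0.63 ± 0.19, none past the threshold. Ptprc, Adgre1, Tyrobp, Fcer1g and Cd52 were at background in all 3 K-LM P6 samples. The median over members was 0.17, against 0.00.

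**Figure D3:**
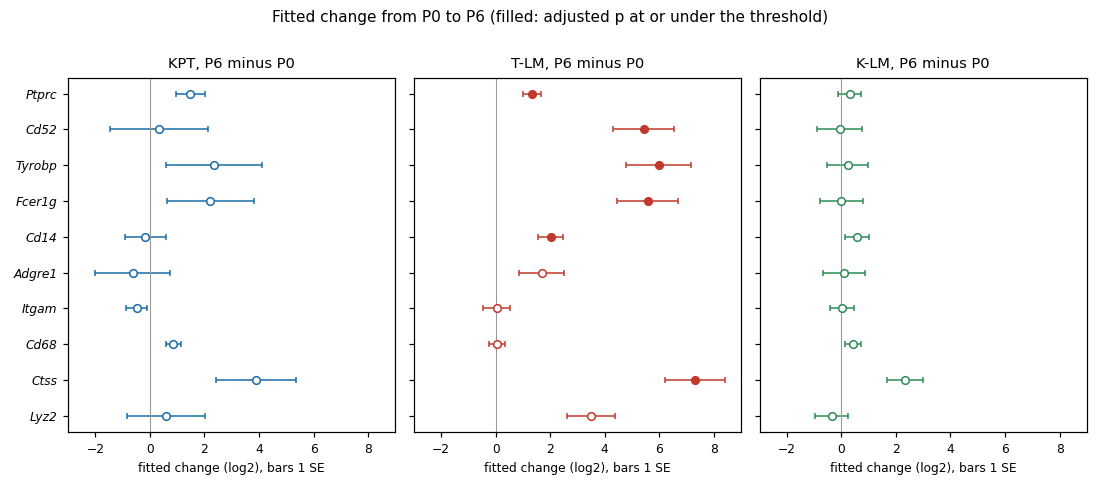
Fitted change from P0 to P6 (x axis, log2, with bars of 1 SE) for each of the 10 genes (y axis) in the 3 routes; filled points had an adjusted p of 0.01 or less. In T-LM, Ctss (7.31), Tyrobp (5.97), Fcer1g (5.58), Cd52 (5.43), Cd14 (2.02) and Ptprc (1.33) are filled, and no point is filled in KPT or K-LM.

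The change from P3 to P6 was tested within the same fits. In T-LM, the 6 genes that passed from P0 passed from P3 as well (7% of probes called, 5.62% higher), with Tyrobp at 6.33 ± 1.04, Cd52 at 5.93 ± 0.99, Fcer1g at 5.64 ± 0.99, Ctss at 5.59 ± 0.96, Cd14 at 1.94 ± 0.40 and Ptprc at 1.52 ± 0.29. For both KPT and K-LM, 0 of 10 passed from P3 to P6 (1 each at an unadjusted p under 0.05), with 0.715% and 5.86% of probes called. Without the KPT P4 and P5 groups, Tyrobp (2.28 ± 0.27) and Ptprc (1.15 ± 0.21) passed in KPT. Without the T-LM P5 group, Lyz2 (2.93 ± 0.45) and Adgre1 (2.195 ± 0.32) passed in T-LM as well.

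First-passage samples were compared with P0 and with P6. From P0 to P1, Ctss rose in KPT by 7.28 ± 1.51 (adjusted p = 0.00403), at least 35.4-fold, as 1 of 10 members (4.41% of probes called, 3.27% higher), and 6 had an unadjusted p under 0.05. That count of 1 was 0 without P0 replicate 1, P0 replicate 2 or KPT P1 replicate 4. In T-LM 0 of 10 passed from P0 to P1 (4 at an unadjusted p under 0.05), with 2.56% of probes called. From P1 to P6, 0 of 10 passed in KPT (9 at an unadjusted p under 0.05), with 11.6% of probes called, and Itgam passed without KPT P1 replicate 2 (-1.27 ± 0.31, adjusted p = 0.0079). From P1 to P6 in T-LM (9.28% of probes called, 3.83% higher and 5.45% lower), Ctss rose by 3.97 ± 0.86, Lyz2 by 2.56 ± 0.64 and Ptprc by 1.58 ± 0.36, while Cd68 fell by 0.87 ± 0.22. That count of 4 was 2 without T-LM P1 replicate 1 or T-LM P6 replicate 3, 1 without T-LM P1 replicate 4 or 5, 0 without T-LM P6 replicate 1 or 2, and 0 with an RNA integrity index as a covariate.

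Between neighbouring passages, a comparison taken up after the levels had been seen, members passed in 3 steps of T-LM and 2 of K-LM. From P3 to P4, 7 members rose (3.58% of probes called, 2.78% higher), with Tyrobp at 7.30 ± 1.04, Fcer1g at 6.38 ± 0.99, Cd52 at 5.82 ± 0.99, Ctss at 5.79 ± 0.96, Lyz2 at 4.02 ± 0.78, Cd14 at 2.42 ± 0.40 and Ptprc at 1.71 ± 0.29. From P4 to P5 the same 7 fell (11.9% called, 8.23% lower), with Tyrobp at -4.84 ± 0.88 and Ctss at -3.77 ± 0.81. From P5 to P6, 6 of them rose again (13.4% called, 10.1% higher), Tyrobp by 3.87 ± 0.88. Lyz2 was the gene that did not pass in that last step, and 2 or 3 members passed in it without T-LM P6 replicate 1, 2 or 3. In T-LM P5, replicate 1 lay with the P4 and P6 samples and the other 5 were at background for Tyrobp, Fcer1g and Cd52.

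In K-LM, Tyrobp (3.24 ± 0.65), Ctss (2.98 ± 0.58) and Lyz2 (2.20 ± 0.53) rose from P4 to P5 (6.11% of probes called, 1.37% higher). From P5 to P6, 4 members fell, with Tyrobp at -4.41 ± 0.72, Fcer1g at -3.60 ± 0.75, Ctss at -3.52 ± 0.64 and Lyz2 at -3.25 ± 0.58 (1.5% called, 0.398% lower). The count from P4 to P5 was 1 without K-LM P4 replicate 3 or 5, and that from P5 to P6 was 1 when K-LM P6 replicate 1 was left out and 0 when replicate 2 was. With the RNA integrity index as a covariate, 0 members were called from P4 to P5 and 1 from P5 to P6, and the index itself had medians of -7.45, -9.32 and -7.59 in K-LM P4, P5 and P6. In the other 10 steps 0 members passed, and 0 to 6 had an unadjusted p under 0.05. The share of probes called in those steps was 1.07% for P0 to P2, 0% for P2 to P3, 2.66% for P3 to P4, 1.21% for P4 to P5 and 0.977% for P5 to P6 in KPT. It was 1.39% and 0% for the first 2 steps in T-LM, and 0.616%, 0% and 15.4% for the first 3 in K-LM.

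An index of RNA integrity, the log2 level of 17 very long mRNAs minus that of the short ribosomal protein mRNAs, moved with passage as well. Its medians from P1 to P6 were -6.73, -8.99, -9.27, -7.30, -8.45 and -7.35 in KPT, -6.79, -8.66, -8.64, -7.99, -8.69 and -7.86 in T-LM. The K-LM medians were -7.28, -8.28, -8.88, -7.45, -9.32 and -7.59. The median number of members above background in the same groups was 9, 5, 4.5, 10, 8 and 7 in KPT, 8, 5.5, 4, 9.5, 5 and 9 in T-LM. In K-LM it was 9, 6, 4, 5, 7 and 5. In KPT and T-LM, P2 and P3 had low values of the index and few members, P1 and P4 had high values and many, and T-LM P5 and P6 moved the same way. In K-LM the first 3 passages did so as well. The other way round, K-LM P5 had the lowest index of its route with more members than K-LM P4 and P6. KPT P5 had a lower index than KPT P6 with more members. P0 had a median index of -7.975 with a median of 3.5 members, beside -7.99 and 9.5 in T-LM P4. Within groups the order was mixed. T-LM P5 replicate 1 had 9 members and KPT P5 replicate 2 had 10, each at the lowest index of its group (-9.39 and -9.17). K-LM P4 replicate 1 and K-LM P5 replicate 6 had 9 members each, at the highest index of their groups (-7.16 and -9.06). With the index as a covariate, the 3 calls of K-LM P4 to P5 and the 4 of T-LM P1 to P6 were lost, and 1 of 4 was left in K-LM P5 to P6. In T-LM, 7 members were called from P0 to P6, 7 from P3 to P6, 8 from P3 to P4, 8 from P4 to P5 and 8 from P5 to P6 with the index, and the P6 comparisons between routes (T-LM against KPT, K-LM against KPT and K-LM against T-LM) had 8, 5 and 8, as many as without it.

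At P6 the routes were compared directly, in a fit with P0 and a term for the late slide. T-LM P6 was above KPT P6 for 7 members and below it for 1 (11.5% of 22064 probes called, 6.98% higher and 4.54% lower). Cd52 was higher by 4.96 ± 0.41 (adjusted p = 1.33e-07), at least 15.6-fold, Tyrobp by 3.49 ± 0.34, Fcer1g by 3.32 ± 0.31, Ctss by 3.32 ± 0.35, Lyz2 by 2.91 ± 0.35, Adgre1 by 2.24 ± 0.25 and Cd14 by 2.22 ± 0.13. Cd68 differed the other way, by -0.77 ± 0.15 (adjusted p = 0.00153). The second Itgam probe, A_55_P1977929, was higher in T-LM P6 by 1.17 ± 0.22 (adjusted p = 0.000861), unlike the brightest one. Ptprc did not pass, with -6.91 to -6.58 in KPT P6 and -7.25 to -6.58 in T-LM P6.

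K-LM P6 lay below T-LM P6 for 8 members and above it for 0 (11.9% of probes called, 7.7% lower). Tyrobp differed by -6.06 ± 0.47 (at least 27.8-fold higher in T-LM), Cd52 by -5.80 ± 0.56 (at least 21.1-fold), Fcer1g by -5.69 ± 0.42 (at least 31.9-fold) and Ctss by -5.26 ± 0.47. Lyz2 differed by -3.87 ± 0.48, Adgre1 by -1.79 ± 0.34, Cd14 by -1.38 ± 0.18 and Ptprc by -1.37 ± 0.31. No T-LM array lay on the late slide, so this comparison rests on the slide term. For Tyrobp and Fcer1g the 2 lung routes thus held the highest and the lowest levels at P6.

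Against KPT P6, K-LM P6 was lower for 4 members and higher for 1 (16.1% of probes called, 6.25% higher and 9.81% lower). Tyrobp differed by -2.57 ± 0.40, Fcer1g by -2.37 ± 0.36, Ctss by -1.95 ± 0.40 and Ptprc by -1.66 ± 0.26, while Cd14 was higher by 0.84 ± 0.16. The late slide held both groups, and within it the differences were -2.81 ± 0.30, -2.44 ± 0.33, -2.14 ± 0.27, -1.92 ± 0.17 and 0.85 ± 0.15 in the same order, each past the threshold.

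Other genes of macrophages and leukocytes were taken from a list of 35, of which 34 had a probe. From P0 to P6, 13 of the 28 tested in T-LM rose, as did 6 of the 29 tested in KPT and 7 of the 21 tested in K-LM, and 0 fell in any route. Of all tested probes, 5.9% were called higher in T-LM, 3.4% in KPT and 4.13% in K-LM. These shares also stand beside the P0 to P6 counts of the lists below. Genes dim in P0 were tested only where passaged samples were bright enough, so the tested genes differ between routes. The median change over the tested genes was 2.14, -0.01 and 0.70 in that order. The 4 largest rises in KPT were Lcp1 (7.07 ± 0.30), which bundles actin in leukocytes and in many carcinoma lines, the inhibitory Fc receptor Fcgr2b (5.12 ± 0.68), Alox5ap (3.48 ± 0.25), needed for leukotriene synthesis, and Cd48 (2.49 ± 0.24). In T-LM they were Lcp1 (6.70 ± 0.48), the leukocyte GTPase Rac2 (6.09 ± 0.29), the integrin beta chain Itgb2 (4.52 ± 0.25) and Fcgr2b (4.43 ± 0.45). In K-LM they were Lcp1 (6.99 ± 0.40), Rac2 (5.79 ± 0.60), Alox5ap (3.18 ± 0.35) and Fcgr2b (3.15 ± 0.58). Lcp1, Fcgr2b, Alox5ap, Rac2, Cd48 and Itgb2 rose in all 3 routes, the K-LM cultures at background for Tyrobp included.

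Their levels by sample also differed from those of Tyrobp. Lcp1 was at background in P0 (-7.19 and -7.85) and read -0.65, -0.70 and -0.96 in K-LM P6, beside -9.25, -9.17 and -8.46 for Tyrobp. In KPT P4 replicate 5, where Tyrobp was at background, Lcp1 read -1.22 and Fcgr2b -5.97, both above background. Alox5ap was above background in all 65 samples, at -4.62 and -4.22 in P0 and at -2.90 to -0.25 in every passaged sample. Lcp1 and Alox5ap were thus high at P6 in samples with and without Tyrobp. Complement C1qa, which macrophages make, was above background in KPT P4 replicates 1 and 3 (-4.19 and -5.03), KPT P5 replicates 1 and 2 (-3.02 and -2.16) the 4 T-LM P4 samples (-4.61 to -4.09) and T-LM P6 replicate 2 (-5.63), but at background in all 5 KPT P1 samples.

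Receptors and kinases that work with TYROBP or the gamma chain were read from a list of 17. Of 12 tested, 2 rose from P0 to P6 in T-LM, Clec4n (7.08 ± 1.14) and the Fc receptor Fcgr3 (3.87 ± 0.80), 0 of 12 rose in KPT and 0 of 9 in K-LM. The medians over the tested genes of the list were 0.89, -0.10 and -0.28. Clec4n read -0.48, -0.96, -1.44 and -1.45 in T-LM P6 and was at background in K-LM P6 (-9.14 to -7.66).

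Markers of other host cells were read in the same samples. The summed linear level of 7 fibroblast genes, in units of the 75th percentile, was 0.0405 to 0.0452 in P0, 2.29 to 7.80 in T-LM P6, 0.4995 to 1.30 in KPT P6 and 1.06 to 3.17 in K-LM P6. From P0 to P6, 6 of 7 fibroblast genes rose in T-LM, 4 of 7 rose in K-LM and 2 of 6 rose in KPT, with the matrix proteoglycan Dcn at 7.35 ± 0.66, 6.28 ± 0.78 and 5.30 ± 0.44. Of 7 lung epithelium genes, 4 rose in T-LM, the surfactant genes Sftpc (5.36 ± 0.89) and Sftpd (3.43 ± 0.44), Ager (2.62 ± 0.57) and Foxj1 (1.88 ± 0.34). Scgb1a1 was the gene of that list that rose in KPT (1.30 ± 0.29) and in K-LM (2.49 ± 0.36). The platelet chemokine Pf4, which macrophages can also make, rose by 7.73 ± 1.09 in T-LM and read 0.70, 0.84, 1.87 and 1.30 in T-LM P4 against background in P0 and in K-LM P6. Of the other platelet and red cell markers, Ppbp was above background in 10 of 65 samples and Hba-a1 in 5. Itga2b was so in 2, Hbb-bt in 1 and Alas2 in 0. Of the endothelial markers, Kdr and Esam were above background in all 65 samples. Pecam1 was so in 4, Cdh5 and Emcn in 2 each, and Tie1 and Tek in 0. The part of any of these cells in the levels of the members was not tested.

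Markers of dendritic cells, which share many genes with macrophages, were read from a list of 8. From P0 to P6, 2 of the 4 tested rose in T-LM, 2 of 2 in K-LM and 1 of 4 in KPT. The medians over the tested genes were 3.77, 3.37 and 0.83 in that order. The other genes of the list were too dim to be tested, so these medians do not describe the whole list. The class II chain H2-Ab1, which presents antigen on the cell surface, rose in T-LM (5.78 ± 0.77) as well as K-LM (5.15 ± 0.98), and H2-Eb1 rose in T-LM (4.64 ± 0.40). Cd74, the class II invariant chain, was above background in all 65 samples and rose in KPT (1.47 ± 0.30) and K-LM (1.58 ± 0.35). At P6, T-LM was above KPT for Itgax, the CD11c chain (3.04 ± 0.29), H2-Ab1 (3.71 ± 0.43) and H2-Eb1 (4.22 ± 0.48), and below it for Cd74 (-0.70 ± 0.14). Flt3, Xcr1 and H2-Aa were above background in 0 of 65 samples and Zbtb46 in 2. The summed level of the list was 0.199 to 0.258 in P0, 0.626 to 0.790 in T-LM P6, 0.512 to 0.668 in KPT P6 and 0.730 to 0.879 in K-LM P6. The part of dendritic cells in the levels of the members was not tested.

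Lymphocyte and mast cell markers were uneven. Cd79a and Ms4a1 (B cells), Cd3d and Cd8a (T cells), Klrb1c (natural killer cells) and Cpa3 and Ms4a2 (mast cells) were above background in 0 of 65 samples. Cd3e, Cd4 and Lck probes read above background in all 65 samples, P0 included. Thy1, a surface protein of T cells and also of fibroblasts and other stromal cells, was at background in P0 (-8.53 and -7.93) and above background in 45 of 65 samples. At P6 Thy1 read -7.07 to -5.14 in KPT, -4.91 to -2.95 in T-LM. In K-LM P6, where Tyrobp was at background, it read -3.90 to -1.82. From P0 to P6, 1 gene of the 10 T and natural killer cell markers rose in T-LM (Lck, 0.92 ± 0.20) and 1 in K-LM (Thy1, 5.88 ± 1.24), and 0 rose in KPT. The B cell receptor chain Cd79b rose in T-LM by 1.69 ± 0.39, with 2 of 4 T-LM P6 samples above background. Among alveolar macrophage markers, Siglecf was above background in 1 sample, Marco in 7, Ear2 in 6, Chil3 in 10, Krt79 in 53, Car4 in 65 and Cidec in 0. Fabp4 rose in all 3 routes (5.12 ± 0.50 in T-LM, 4.86 ± 0.29 in KPT and 5.57 ± 0.73 in K-LM). Neutrophil S100a8 rose in T-LM (3.99 ± 0.67) and K-LM (3.87 ± 0.95). Of the other neutrophil markers, Ltf and Retnlg were above background in 0 samples, S100a9 in 3, Camp in 9, Mpo in 13, and Elane and Csf3r in all 65. Xist, which female cells transcribe from an inactive X chromosome, was above background in 0 of 65 samples, those with the highest Tyrobp levels included. No sample showed that this probe can read above background here.

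**Figure D4:**
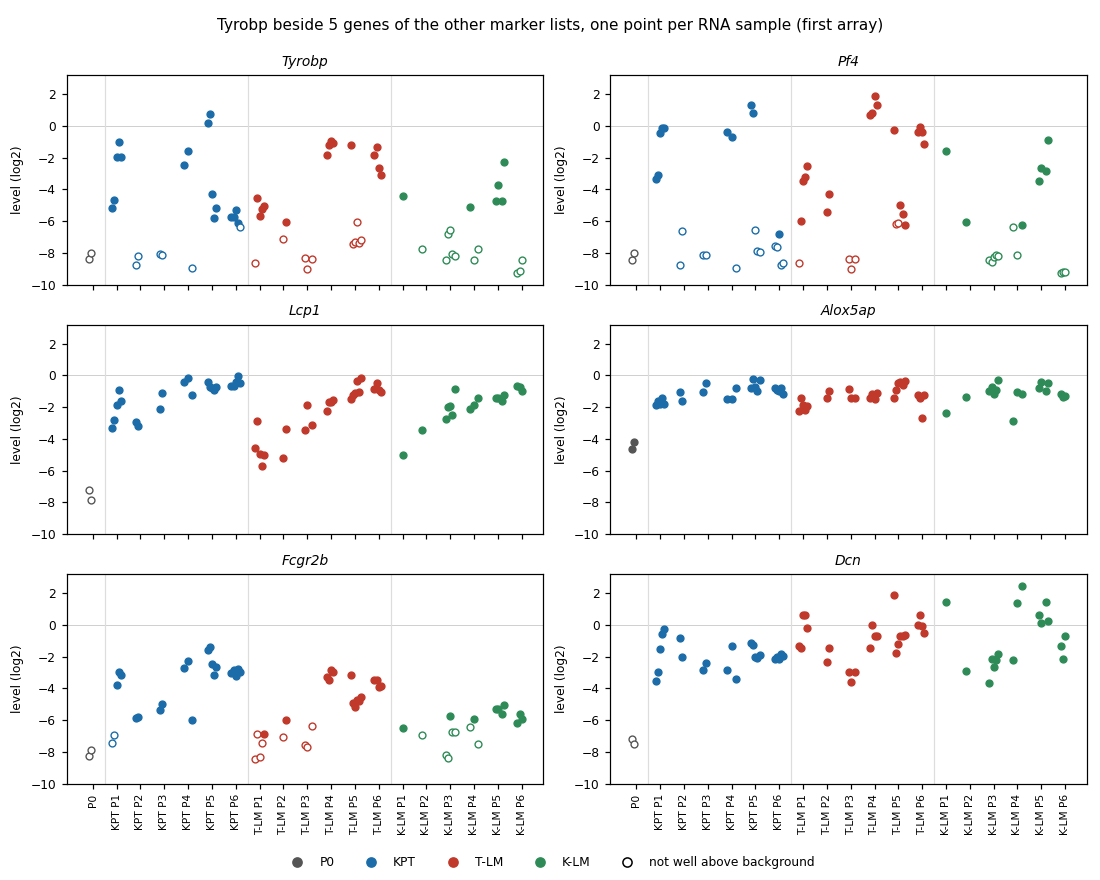
Level (y axis, log2) of Tyrobp and of 5 genes of the other marker lists, chosen after their values were seen, in P0 and each route and passage (x axis), with 1 point per RNA sample on its first array; filled points were well above background. Pf4 is highest in samples with Tyrobp above background, whereas Lcp1, Alox5ap and Dcn are above background in every passaged sample, K-LM P6 (Lcp1 -0.96 to -0.65) included.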

How the data were processed

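Total RNA was labelled with Cy5 and read on single-colour Agilent mouse arrays. The authors deposited scanner files that hold each spot's signal intensity, with a processed intensity from which Agilent Feature Extraction (11.0.1.1 for 62 arrays, 12.0.2.2 for 8) had taken background and spatial trend. Their deposited value table is in log2, and matched quantile-normalized raw median signals within 0.106. Other deposited columns, the software's outlier flags and well-above-background calls, were used as they stand. A genome build for the array design is not given in the sources used here. Control spots were left out, 59305 spots were averaged into 55681 probes, and 27655 probes had no symbol match in the RefSeq table.

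Levels are log2 processed intensity minus the 75th percentile of 11289 probes above background on all 70 arrays. One probe stands for a gene, the brightest on average. Group levels use the first array of each of the 65 RNA samples. Probes above background on at least 2 arrays of a fit were tested with limma 3.58.1 (lmFit, eBayes, R 4.3.3; statmod 1.5.0 for the RNA sample as a random block over 4000 probes), 2-sided, with Benjamini-Hochberg adjustment over all probes tested and a threshold of 0.01 after the study's methods. Each route had a fit of P0 with P2 to P6, and P1 was added where compared. K-LM and P6 fits held the repeat arrays and a late-slide term. A lower-bound fold sets each array of the dim group to the lowest signal above background. Arrays have no counting depth, and their number limits the precision.

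On simulated data, 97, 99 and 96 of 100 probes changed by 4 log2 units were called from P0 to P6 in KPT, T-LM and K-LM, and 77, 67 and 70 of 100 changed by 2. These shares need not hold for genes whose samples of a KPT group lay far apart, such as Tyrobp, Fcer1g and Ctss. For those, not passing in KPT does not show that no change of that size took place. The files hold no mean signal, so normexp (offset 50), an alternative, ran on the median signal. Other alternatives were another percentile, the deposited values, other filters, a floor of 25 intensity units, slide, replicate and integrity terms, and leaving out samples.

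The members and lists were chosen with earlier results of these data known. The 10 members are named throughout. The 4 largest rises of the other macrophage and leukocyte list per P0 to P6 comparison and the 3 genes most like each member were named by rule, and further list genes were named after their values were seen. Same-numbered samples did not deviate together (r from -0.399 to 0.292 over 34 pairs), so numbers were not used as pairs.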

Additional observations from a re-analysis of the deposited data

Results flagged for a closer look

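Among 90 group levels with 4 to 10 samples, 13 held a sample set apart from the rest of its group. Chance gives about 1 in 20 where levels are independent. Most members moved together, so 1 sample could be flagged for several genes, and the 13 cannot be set against that rate. T-LM P5 replicate 1 accounted for 6 of them, with Lyz2 at -1.365 (others -5.90 to -4.55), Adgre1 at -3.855 (others -8.53 to -7.53), Tyrobp at -1.187 (others -7.45 to -6.07), Fcer1g at -0.6859 (others -7.19 to -5.80), Ctss at 0.2966 (others -5.92 to -4.79) and Cd52 at -1.651 (others -8.22 to -6.54). K-LM P5 replicate 6 held 3, with Lyz2 at -1.935 (others -3.53 to -3.35), Adgre1 at -5.362 (others -7.13 to -7.05) and Ctss at -1.19 (others -3.05 to -2.88). The other 4 included Ptprc at -6.78 in T-LM P1 replicate 2, on the array with 55.2% of all probes well above background. Another was Tyrobp at -8.613 in T-LM P1 replicate 1. The last 2 were Cd52 at -3.178 in T-LM P4 replicate 1 and at -6.113 in K-LM P3 replicate 3.

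The routes differed at P6 in 21 tested differences of members (limma, adjusted p of 0.01 or less). For T-LM minus KPT these were Lyz2 2.906, Cd68 -0.7659, Adgre1 2.241, Cd14 2.221, Tyrobp 3.489, Fcer1g 3.319, Ctss 3.316 and Cd52 4.957. For K-LM minus KPT they were Ptprc -1.658, Cd14 0.8379, Tyrobp -2.567, Fcer1g -2.369 and Ctss -1.949. For K-LM minus T-LM they were Ptprc -1.372, Lyz2 -3.867, Adgre1 -1.79, Cd14 -1.383, Tyrobp -6.056, Fcer1g -5.688, Ctss -5.264 and Cd52 -5.803. The P6 samples of a route are shared between these comparisons.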

How the results depend on the processing

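Of 1177 values of called members recomputed under the alternatives, 1037 stayed past the threshold, 140 kept their direction without passing and 0 reversed. Of 324 recomputed counts of members called, 38 moved by over 1.5 times. With only the 2 compared groups in the fit, 4 members were called for KPT P0 to P6, 2 for KPT P3 to P6 and 1 (Ctss) for K-LM P0 to P6. Without the KPT P4 and P5 groups, an alternative added after seeing the data, as were all passage steps and the fits on the late slide alone, 4 and 2 were called in KPT. K-LM P0 to P6 also had 1 on the late slide alone and with slide as a random block. Normexp with quantile normalization gave 0 for KPT P0 to P1. For T-LM P1 to P6, no filter on dim probes gave 2, leaving out the sample of unstated route gave 2, and the integrity index gave 0. The index gave 0 for K-LM P4 to P5 and 1 for K-LM P5 to P6. With a replicate block, KPT P0 to P1 had 0, KPT P0 to P6 had 1 (Ctss), T-LM P1 to P6 had 0, T-LM P5 to P6 had 2, K-LM P4 to P5 had 0 and K-LM P5 to P6 had 1; the other 12 counts stayed within 1.5 times.

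Leaving out 1 sample at a time gave 0 to 1 for KPT P0 to P1 (0 without either P0 sample or KPT P1 replicate 4), 0 to 1 for KPT P1 to P6 (1 without KPT P1 replicate 2) and 1 to 6 for T-LM P0 to P6 (1 without either P0 sample). It gave 0 to 4 for T-LM P1 to P6 (0 without T-LM P6 replicate 1 or 2, 1 without T-LM P1 replicate 4 or 5), 2 to 9 for T-LM P5 to P6 (2 or 3 without T-LM P6 replicate 1, 2 or 3), 1 to 4 for K-LM P4 to P5 (1 without K-LM P4 replicate 3 or 5) and 0 to 3 for K-LM P5 to P6 (0 or 1 without K-LM P6 replicate 1 or 2). The causes were not tested. A fit on the 2 compared groups alone could not be made for K-LM P3 to P6 and P6 K-LM against P6 T-LM, where slide and group cannot be told apart. Dim probes limit Ptprc, above background in 12 of 65 samples.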
